A study of Mus musculus with 14 samples.

Results

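A pair of stable derivatives of one mouse lens epithelial cell line were compared, one carrying KCREB and one carrying S133A-KCREB. Each line was sequenced once without and once with TGFβ, so the comparison rests on 4 of the 14 RNA-seq libraries of the study. The difference was taken within each treatment as S133A-KCREB minus KCREB on the log2(TPM + 1) scale, where TPM is the length-scaled share of transcripts per library that the authors deposited. A gene was kept when its mean over the 4 libraries was at least 5 TPM, which left 10403 of 40853 gene identifiers. It was called 2-fold apart when the difference was at least 1.0 in size, either in one direction in both treatments or in 1 treatment with a difference under 0.5 in the other.

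The 14 libraries come from 7 lines of αTN4-1, a lens epithelial line transformed with the SV40 T antigen, each in a control and a TGFβ state. Besides KCREB and S133A-KCREB there are lines with Vector, with WT-CREB or S133A-CREB, and with R314A-CREB or S133A/R314A-CREB, and all grew under neomycin selection in medium with serum. TGFβ was given at 20 ng/mL for 24 h in medium without serum. Nothing in the labels gives the serum state of the control cells, and an effect of TGFβ cannot be told apart from one of removing serum. The labels name the KCREB lines in the titles but not in the culture protocol, and they give neither the species of the CREB constructs nor whether a line is a clone or a pool. There is 1 line per construct, so a difference between these lines cannot be told apart from the construct. Every p-value below concerns lines, not the construct. Those of the line difference measure these 2 lines against the spread of lines between treatments.

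CREB is a basic leucine zipper transcription factor that binds the cAMP response element of promoters. Phosphorylation of its serine S133 by protein kinase A and other kinases recruits the coactivators CBP and p300, and the S133A change removes that site. KCREB carries a change in the DNA-binding region that prevents it from binding the element, and it acts as a dominant negative by pairing with intact CREB. In the lens, TGFβ is known for driving epithelial cells toward a mesenchymal, matrix-producing state that is studied as a model of cataract and capsule fibrosis.

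The 4 libraries were alike in their overall measures. Between 12545 and 12597 genes reached 1 TPM, and the mitochondrially encoded transcripts made up 6.75% to 8.61% of TPM. Read counts were not given, and the ratio of coverage to FPKM, which follows depth, ran from 6.08 to 7.67 in these libraries against 5.05 to 10.08 over all 14. Of the 12 lens epithelial markers that were tested, 6 passed as lower in S133A-KCREB and none as higher, and their summed level was 4019 TPM in KCREB and 2769 TPM in S133A-KCREB control cells. With TGFβ the sums were 2030 and 1661 TPM. Against the other 5 lines the median of these markers was 0.80 in control cells and 0.60 with TGFβ in KCREB. In S133A-KCREB it was 0.08 and 0.06, so KCREB was the line further from the rest. In bulk RNA, fewer cells of a type and less RNA per cell cannot be told apart.

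Mouse Creb1 mRNA was above the other 5 lines in both lines, and the test did not separate the pair. Creb1 (GRCm39 chromosome 1, 64571963 to 64643707) measured 25.8 TPM in KCREB and 34.0 TPM in S133A-KCREB control cells, and 30.1 and 38.3 TPM with TGFβ. The other 10 libraries lay between 4.43 and 23.1 TPM, below all 4 of these values. The line difference was 0.36 ± 0.20 on the log2 scale (SE, limma adjusted p = 0.20). Whether construct transcripts were counted at this gene cannot be read from the files.

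Over all 12927 genes tested, 4211 passed the line difference at an adjusted p under 0.05 (limma, line and treatment as terms over the 14 libraries), which is 32.6% of them. The 2135 genes higher in S133A-KCREB (16.5%) and the 2076 lower (16.1%) were near equal in number. By the 2-fold rule, 230 genes were higher in both treatments (2.21% of 10403) and 199 were lower in both (1.91%), together 4.12% of the genes. Of the higher genes 66 and of the lower genes 39 were at least 4-fold apart in both treatments. The test uses the same differences as the rule, so passing it adds no support for the genes chosen by the rule. Across the 10403 genes the difference in control cells and the difference with TGFβ had a Pearson r of 0.822, a description over genes that are not independent replicates. The medians were -0.01 in control cells and -0.02 with TGFβ, on values that are scaled to one total in every library.

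**Figure D1:**
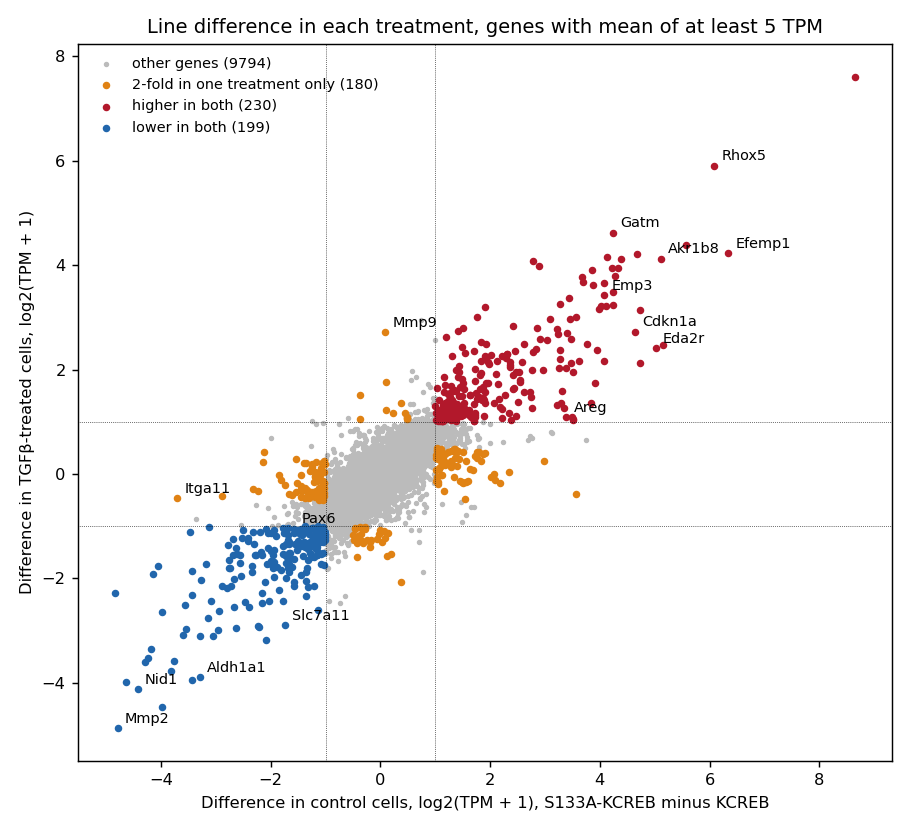
Each point is 1 of 10403 genes, with the S133A-KCREB minus KCREB difference in control cells on the x axis and the same difference with TGFβ on the y axis, both on the log2(TPM + 1) scale. The 230 genes higher and 199 genes lower in both treatments lie at the 2 ends of the diagonal, and the 180 genes apart in 1 treatment lie near the axes.

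The thresholds cut through a continuous range. Tubb2a, a β-tubulin, lay just inside with differences of 1.00 in control cells and 1.30 with TGFβ, and Cgn, the tight junction protein cingulin, lay just outside with 1.00 and 0.997. On the lower side Camk2d, a calcium/calmodulin kinase subunit, was just inside at -1.0 and -1.27. The MHC class II chaperone gene H2-DMb2 was just outside at -0.9996 and -1.35.

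Among the genes higher in both treatments, the largest differences were in genes that KCREB cells hardly expressed. The filter used the mean TPM over both lines, so such genes were kept mainly through their S133A-KCREB values. Ranking by the log difference also favours genes that are low in KCREB. The low KCREB levels of the top genes therefore follow at least in part from the selection and are a description. Rhox5, an X-linked homeobox gene of the reproductive tract, measured 3.98 TPM in KCREB and 336 TPM in S133A-KCREB control cells, and 3.11 and 245 TPM with TGFβ. Both KCREB values lay below the other 10 libraries, whose range was 13.5 to 678 TPM, while both S133A-KCREB values lay inside it. The difference of Rhox5 was 5.99 ± 0.15 (SE, adjusted p = 7.05e-08), the smallest p of all genes tested. Tcp11x2, a testis gene also on the X chromosome, showed the same arrangement, with 2.65 and 62.5 TPM in control cells and 2.03 and 52.9 TPM with TGFβ. Rhox5 and Tcp11x2 belong to families of similar copies, and how the deposited values shared reads among copies is not given.

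Gatm, which makes the creatine precursor guanidinoacetate, measured 0.871 TPM in KCREB and 34.4 TPM in S133A-KCREB control cells, and 0.961 and 47.3 TPM with TGFβ. All 4 values lay inside the range of the other lines, 0.117 to 57.8 TPM, so Gatm varied as widely among lines of other constructs. Efemp1, the matrix protein fibulin-3, measured 1.48 and 199 TPM in control cells but 0.120 and 20.0 TPM with TGFβ. The line difference of Efemp1 was 5.28 ± 0.67 (adjusted p = 5.74e-04), a larger error than that of Gatm (4.43 ± 0.17, adjusted p = 7.66e-07).

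Napsa, an aspartic protease, was listed at 0 in both KCREB libraries and measured 19.9 and 16.4 TPM in S133A-KCREB without and with TGFβ. Every library of the other lines had at least 0.428 TPM, so KCREB was the line that stood apart. Akr1b8, an aldo-keto reductase with close family members, behaved alike in that respect, with 0.667 TPM in KCREB against 56.5 TPM in control cells and 3.24 against 72.8 TPM with TGFβ. The other 10 libraries ranged from 35.5 to 159 TPM for Akr1b8. Plscr2, a phospholipid scramblase family gene, and Prkd3, a protein kinase D, were also lower in both KCREB libraries than in any library of the other 5 lines. Plscr2 measured 4.44 and 78.8 TPM in control cells and 5.30 and 76.8 TPM with TGFβ. For Prkd3 the values were 0.372 and 13.9 TPM, then 0.804 and 17.7 TPM.

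In other genes it was S133A-KCREB that lay outside the other lines. Emp3, a small membrane protein of the PMP22 family, measured 16.4 TPM in KCREB and 294 TPM in S133A-KCREB control cells, and 22.9 and 256 TPM with TGFβ. The other 10 libraries lay between 15.1 and 117 TPM, which holds both KCREB values and neither S133A-KCREB value, and the difference of Emp3 was 3.75 ± 0.29 (adjusted p = 3.73e-05). Siglecg, a sialic acid-binding lectin, followed with 0.184 and 21.1 TPM in control cells and 1.61 and 39.0 TPM with TGFβ, against 0.766 to 12.3 TPM elsewhere. Cxcl12, the chemokine that binds CXCR4, measured 15.8 and 137 TPM in control cells and 24.4 and 150 TPM with TGFβ, with both S133A-KCREB values above the highest other library at 112 TPM. Cadm4, a cell adhesion molecule, and Nlrp4e, an oocyte-expressed NLR gene, differed as much, but neither line had both of its values outside the range of the other lines. Their S133A-KCREB control levels were 39.8 and 17.8 TPM, where KCREB had 1.44 TPM of Cadm4 and was listed at 0 for Nlrp4e.

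Of the 230 genes higher in both treatments, 45 had both KCREB values outside the range of the other 10 libraries, 52 had both S133A-KCREB values outside it and 10 had both lines outside. The remaining 123 had neither. Over all 10403 genes the same shares were 5.59% for KCREB alone, 11.2% for S133A-KCREB alone, 1.51% for both lines and 81.6% for neither. A gene that differs between 2 lines is more likely than others to lie outside a range, so these counts are a description. Gm41537, an unnamed gene model outside the naming rule, was singled out because it had the largest difference of all. It was listed at 0 in both KCREB libraries and measured 402 and 195 TPM in S133A-KCREB.

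The lowest genes in S133A-KCREB are described next. Mmp2, the gelatinase that cleaves type IV collagen, measured 53.2 TPM in KCREB and 0.961 TPM in S133A-KCREB control cells, and 45.9 and 0.600 TPM with TGFβ. Its difference was -4.83 ± 0.20 (adjusted p = 1.42e-06). The values of the other lines ran from 0.541 to 77.1 TPM with a median of 58.8 TPM, so at least 1 other library was as low as S133A-KCREB. Nid1, the basement membrane linker nidogen-1, measured 86.1 and 3.06 TPM in control cells and 25.7 and 0.526 TPM with TGFβ. No library of another line was below 10.9 TPM of Nid1, so S133A-KCREB stood apart, and the difference was -4.28 ± 0.31 (adjusted p = 3.04e-05).

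Sfrp1, a secreted Wnt antagonist, measured 563 TPM in KCREB and 30.3 TPM in S133A-KCREB control cells, and 108 and 9.60 TPM with TGFβ. Aldh1a1, a retinaldehyde dehydrogenase abundant in ocular tissue, measured 636 and 64.4 TPM in control cells and 72.3 and 3.91 TPM with TGFβ. For both genes the TGFβ value of each line was below its control value, and the line difference kept its direction: -3.77 ± 0.29 for Sfrp1 (adjusted p = 3.73e-05) and -3.59 ± 0.40 for Aldh1a1 (adjusted p = 3.03e-04). Dhrs3, a retinaldehyde reductase, measured 26.9 and 2.38 TPM in control cells and 9.56 and 0.233 TPM with TGFβ.

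Hhex, a homeobox gene of endoderm and blood, was read in KCREB cells and in no other line. It measured 9.86 TPM in control and 14.4 TPM in TGFβ-treated KCREB cells, and all 12 other libraries, S133A-KCREB included, list it at 0. Nme4, a mitochondrial nucleoside diphosphate kinase, was at 13.1 and 12.7 TPM in KCREB, above the highest other library at 10.5 TPM, and was listed at 0 in both S133A-KCREB libraries. Sgce, the imprinted gene of ε-sarcoglycan, was at 18.7 and 11.2 TPM in KCREB and listed at 0 in both S133A-KCREB libraries, with the other lines from 0 to 22.4 TPM. Dach2, an X-linked transcriptional cofactor, and Abhd6, a monoacylglycerol hydrolase, had both S133A-KCREB values below every library of the other lines. Dach2 measured 13.0 and 0.0261 TPM in control cells and 12.9 and 0.160 TPM with TGFβ. Abhd6 measured 18.2 and 0.0130 TPM in control cells, then 10.6 TPM against a listed 0, where the lowest library of another line had 0.0398 TPM.

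Ap3b2, the neuronal subunit of the AP-3 adaptor, and Ell3, an elongation factor, had both KCREB values above every library of the other lines. Ell3 measured 28.8 and 1.46 TPM in control cells and 13.9 and 0.755 TPM with TGFβ, and no other line exceeded 2.37 TPM. Ap3b2 measured 19 and 1.05 TPM, then 18.1 and 1.21 TPM, and the other lines reached 12.4 TPM. Of the 199 genes lower in both treatments, 38 had S133A-KCREB alone outside the other lines, 23 had KCREB alone, 4 had both and 134 had neither.

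**Figure D2:**
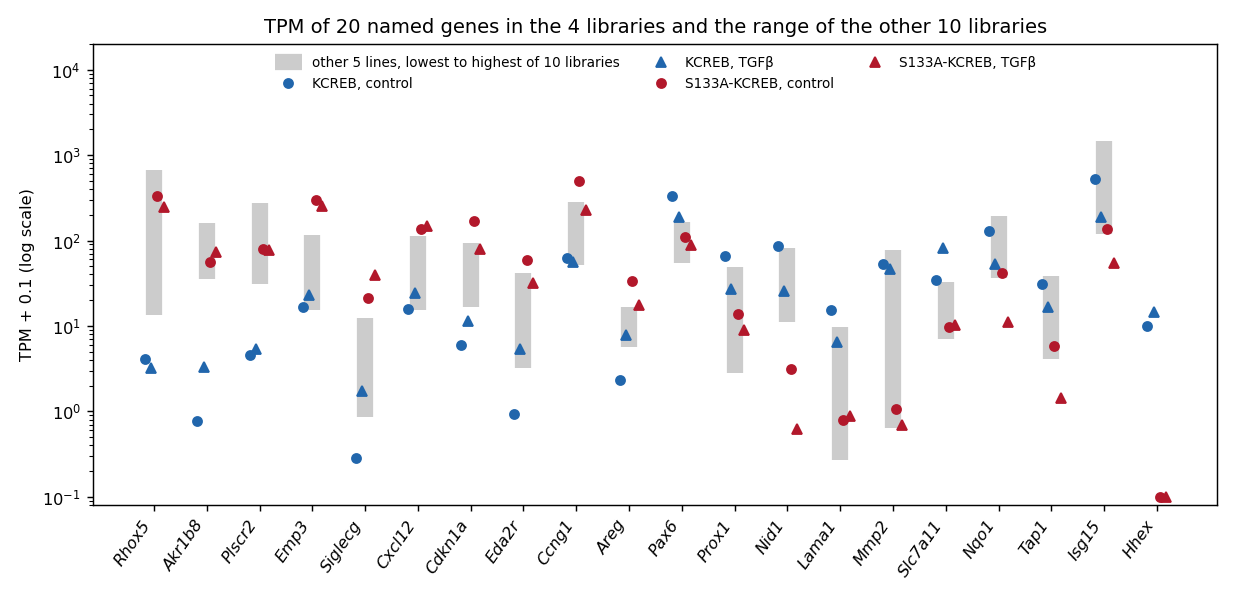
TPM of 20 named genes in each of the 4 libraries, on a log axis after adding 0.1 so that genes listed at 0 can be drawn, with a grey bar from the lowest to the highest of the 10 libraries of the other 5 lines. The KCREB points of Rhox5, Akr1b8 and Plscr2 lie below that bar, the S133A-KCREB points of Emp3 and Siglecg lie above it, and Hhex, at 0 in all 5 other lines, has no bar.

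The differences were not spread evenly over the genome. The genes of chromosome 13 had a median difference of 0.44 in control cells and 0.38 with TGFβ (383 genes), those of chromosome 7 of 0.36 and 0.31 (776 genes), those of chromosome 6 of 0.33 and 0.33 (490 genes) and those of chromosome 15 of 0.31 and 0.30 (404 genes). Chromosomes 3, 8, 2 and 19 had medians below 0, from -0.36 and -0.39 for the 483 genes of chromosome 3 to -0.22 and -0.20 for the 382 genes of chromosome 19. The other 11 autosomes and X stayed within 0.1 of 0. The order was nearly the same without and with TGFβ.

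These chromosome groups were formed after the medians were seen, with 0.2 as the bound, so their counts are descriptions. On the 4 higher chromosomes 976 of 2053 genes passed as higher (47.5%) and 98 as lower (4.77%). On the 4 lower chromosomes 96 of 2269 genes passed as higher (4.23%) and 964 as lower (42.5%). On the other 12 chromosomes 768 of 6035 genes passed as higher (12.7%) and 731 as lower (12.1%). Of the 230 genes 2-fold higher in both treatments, 105 were on the higher chromosomes and 20 on the lower ones, and of the 199 genes lower in both, 20 and 85 were.

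Chromosome 7 changed level along its length. Between 0 and 70 Mb, every 10 Mb window with at least 20 genes had medians between 0.53 and 0.74, and in the window from 30 to 40 Mb 42 of 44 genes were higher in S133A-KCREB in both treatments. From 80 Mb onward the window medians lay between -0.10 and 0.04. Nlrp4e, Cadm4, Siglecg, Napsa and Emp3 all lie in the first 50 Mb of chromosome 7. Among the named lower genes Mmp2 and Sfrp1 lie on chromosome 8, Ell3 on chromosome 2 and Aldh1a1 and Hhex on chromosome 19, while Nid1 was lower on chromosome 13 and Sgce on chromosome 6, against the shift of their chromosomes. On chromosome 13 the window from 20 to 30 Mb had medians of 0.73 and 0.65, with 21 of 21 genes higher in both treatments. On chromosome 3 the window from 120 to 130 Mb had the lowest mean of both medians, -0.45 and -0.62, with 22 of 26 genes lower in both treatments and 0 higher.

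**Figure D3:**
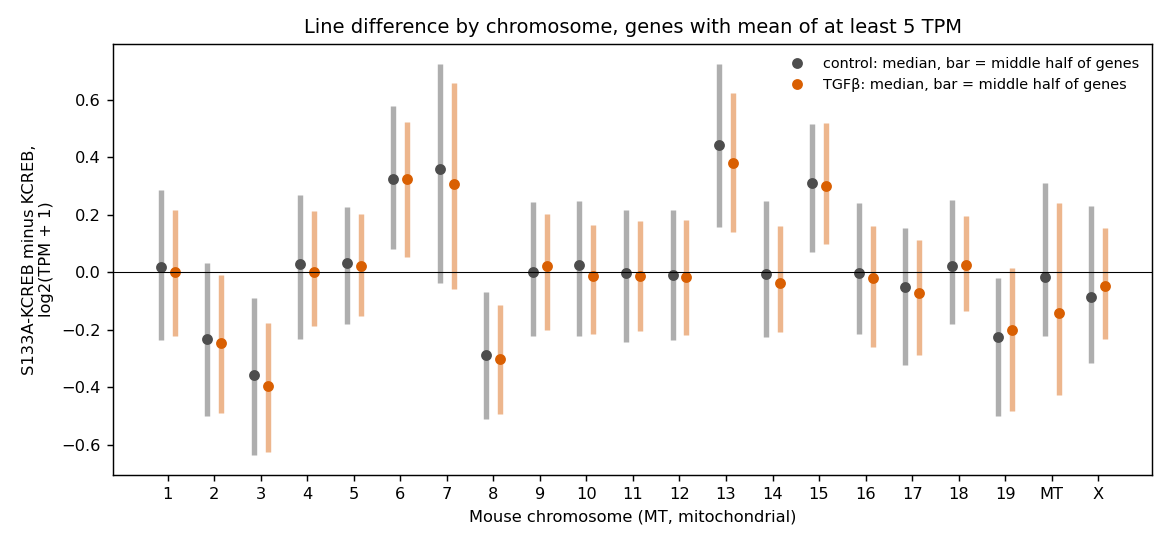
Median S133A-KCREB minus KCREB difference of the genes on each chromosome, on the log2(TPM + 1) scale, in control cells and with TGFβ, with bars for the middle 50% of genes. Chromosomes 13, 7, 6 and 15 lie above 0 and chromosomes 3, 8, 2 and 19 below 0 in both treatments.

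Against the other 5 lines, the shifts of chromosomes 13, 7 and 3 lay mainly in S133A-KCREB. On chromosome 13 the S133A-KCREB libraries had medians of 0.40 and 0.40 and the KCREB libraries of -0.04 and 0.04, and on chromosome 7 the values were 0.33 and 0.37 against -0.03 and 0.05. On chromosome 15 it was KCREB that was shifted, with -0.35 and -0.31, where S133A-KCREB had -0.07 and -0.00. Chromosome shifts were not particular to this pair: between the S133A/R314A-CREB and R314A-CREB lines chromosome 16 had medians of 0.44 and 0.39 and chromosome 17 of -0.34 and -0.39. Between S133A-CREB and WT-CREB chromosome 7 had 0.33 and 0.28 and chromosome 13 had 0.23 and 0.26. In the R314A pair these were 0.12 and 0.14, and 0.18 and 0.16. Chromosome 2 was also below 0 in both other pairs, while chromosome 8 was above 0 in both. DNA copy number was not measured, and the part of chromosome position in the gene differences was not tested. With each library's chromosome medians subtracted, an alternative chosen after seeing the data, 3206 genes passed. Of the 230 higher genes 173, and of the 199 lower genes 158, were still 2-fold apart in both treatments. The median was taken over the whole chromosome, so a shift of part of a chromosome, as on chromosome 7, was removed only in part. These counts are therefore not free of position.

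Gene groups are described by how many members passed, to be read against 16.5% higher and 16.1% lower over all genes. The p53 targets, which are genes of cell cycle arrest and apoptosis, were mostly higher in S133A-KCREB: of 21 tested, 14 passed as higher and 1 as lower, with median differences of 0.97 in control cells and 0.68 with TGFβ. T antigen binds p53 in lines of this kind. Cdkn1a, the cyclin-dependent kinase inhibitor p21, measured 5.91 TPM in KCREB and 171 TPM in S133A-KCREB control cells, and 11.3 and 80.2 TPM with TGFβ. Both KCREB values were below the lowest other library at 16.5 TPM, and the difference was 3.68 ± 0.42 (adjusted p = 3.30e-04). Eda2r, a death-domain receptor, measured 0.842 and 58.5 TPM in control cells and 5.23 and 32.0 TPM with TGFβ.

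Ccng1, cyclin G1, measured 62.3 and 493 TPM in control cells and 56.2 and 227 TPM with TGFβ, a difference of 2.48 ± 0.24 (adjusted p = 1.42e-04). Trp53inp1, a p53-inducible nuclear protein, measured 56.3 and 309 TPM, then 59.7 and 189 TPM, with both S133A-KCREB values above the highest other library at 147 TPM. Zmat3, an RNA-binding target, measured 14.9 and 50.9 TPM, then 13.8 and 36.7 TPM. In each of these genes S133A-KCREB was the higher line in both treatments. Smaller differences passed for Mdm2, the p53 ubiquitin ligase (0.89 ± 0.13), and for Bax, a mediator of apoptosis on chromosome 7 (1.03 ± 0.22). Sesn1, a stress-inducible sestrin, was the one member lower, at 90.7 and 26.3 TPM in control cells and 30.9 and 19.9 TPM with TGFβ. Trp53 itself measured 238 and 242 TPM in control cells and 398 and 359 TPM with TGFβ (adjusted p = 0.761). Against the other 5 lines the list's median was below 0 in KCREB, at -0.54 and -0.30, and above 0 in S133A-KCREB, at 0.60 and 0.41. With chromosome medians removed, 12 members passed as higher and 2 as lower.

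The CREB subfamily and its coactivators differed little. Of 13 tested, 2 passed as higher and 3 as lower, and none was 2-fold apart in either treatment class. The CREB-regulated coactivators Crtc1 and Crtc2 were lower: Crtc1 measured 20.1 and 13.1 TPM in control cells and 22.7 and 15.4 TPM with TGFβ, and Crtc2 measured 44.1 and 29.7 TPM, then 43.2 and 33.9 TPM. Ep300, which encodes the coactivator p300, measured 38.0 and 48.8 TPM in control cells and 41.7 and 57.6 TPM with TGFβ, a difference of 0.40 ± 0.09 (adjusted p = 0.00630). Crtc1 and Crtc2 lie on chromosomes 8 and 3 and Ep300 on chromosome 15, whose genes shifted in the same directions. With chromosome medians removed 0 members passed as higher and 2 as lower. Crtc1 (-0.27, adjusted p = 0.0588), Crtc2 (-0.07, 0.617) and Ep300 (0.08, 0.477) then no longer passed. Creb3l2, a further member of the list, passed as lower there (-0.86, adjusted p = 0.0199). Atf1, the close relative of CREB, measured 63.7 and 67.6 TPM in control cells and 75.8 and 79.2 TPM with TGFβ (adjusted p = 0.533).

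Of 29 cAMP-CREB response genes, 8 passed as higher and 3 as lower, with medians of 0.16 and 0.17. Areg, the EGF receptor ligand amphiregulin, measured 2.26 TPM in KCREB and 33.1 TPM in S133A-KCREB control cells, and 7.77 and 17.6 TPM with TGFβ (2.23 ± 0.42, adjusted p = 0.00358). Both S133A-KCREB values were above the highest other library at 16.7 TPM. Inhba, the activin βA subunit, measured 10.8 and 28.2 TPM in control cells and 5.78 and 31.4 TPM with TGFβ. Id1, an inhibitor of basic helix-loop-helix factors, measured 5.81 and 33.4 TPM, then 13.0 and 30.3 TPM. Klf4, a zinc finger transcription factor, measured 48.3 and 139 TPM, then 34.7 and 77.3 TPM, and for Inhba, Id1 and Klf4 too S133A-KCREB was above every other line. Fos, the immediate early AP-1 subunit, went the other way, at 9.87 and 3.19 TPM in control cells and 6.59 and 2.78 TPM with TGFβ. There KCREB was above the highest other library at 6.44 TPM, and the difference was -1.19 ± 0.17 (adjusted p = 0.00103).

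The full cAMP response element, the palindrome TGACGTCA read on both strands, was sought in RefSeq promoter windows of 300 bases (GRCm38.p6), where 588 of 32851 windows hold it (1.79%). Of the 10403 genes 8320 had a window, and 313 of these hold the element (3.76%). Among the genes 2-fold apart in both treatments it was found in 2 of 165 higher genes with a window (1.21%) and 5 of 147 lower ones (3.40%), both below the share over all genes. Under 80% of each set had a window, so a comparison of these shares is void. Areg and Tubb2a among the higher genes and Pax6, Ltbp1, Daam2, Tspyl4 and the unnamed gene model Gm35195 among the lower ones hold it. Tubb2a, Daam2, Tspyl4 and Gm35195 fall outside the naming rule and are named for the element, after their values were seen. The stretches are shown because these are the genes of the set where the element lies before an annotated start, with the element in capitals and each read 5′ to 3′ on the gene's strand.
Areg: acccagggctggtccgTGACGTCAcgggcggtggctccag
Tubb2a: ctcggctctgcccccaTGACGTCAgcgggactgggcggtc
Pax6: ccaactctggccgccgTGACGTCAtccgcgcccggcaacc
Ltbp1: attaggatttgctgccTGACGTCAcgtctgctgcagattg
Daam2: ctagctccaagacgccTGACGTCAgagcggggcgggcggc
Tspyl4: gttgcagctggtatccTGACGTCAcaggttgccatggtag
Gm35195: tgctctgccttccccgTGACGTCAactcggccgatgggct
In GRCm38.p6 the stretch of Areg is chr5:91139522-91139561 on the plus strand and that of Tubb2a chr13:34078044-34078083 on the minus strand. The stretch of Pax6 is chr2:105668804-105668843 and that of Ltbp1 chr17:75005440-75005479, both on the plus strand. The stretch of Daam2 is chr17:49564341-49564380 on the minus strand and that of Tspyl4 chr10:34297372-34297411 on the plus strand. The stretch of Gm35195 is chr6:59697955-59697994 on the plus strand. The element lies 33 to 76 bases before the start in Areg, Tubb2a, Pax6, Ltbp1 and Tspyl4 and 27 and 54 bases before 2 annotated starts of Daam2, and 196 bases before the start in Gm35195. The same 8 letters thus stand in genes that differed in opposite directions, and a match describes the sequence and not binding. Tubb2a measured 91.3 and 184 TPM in control cells and 87.5 and 217 TPM with TGFβ. Daam2, a formin of Wnt signalling, measured 61.7 and 10.0 TPM in control cells and 17.1 and 7.60 TPM with TGFβ. Tspyl4, a nucleosome assembly family gene, measured 34.5 and 9.61 TPM, then 13.6 and 3.97 TPM. S133A-KCREB was higher in Tubb2a and lower in Daam2 and Tspyl4 in both treatments. Gm35195 measured 1011 and 39.5 TPM, then 581 and 35.8 TPM.

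Among 18 genes of cAMP signalling and protein kinase A, 4 passed as higher and 4 as lower, and none was 2-fold apart in both treatments. Pde3b, a phosphodiesterase that degrades cAMP, measured 73.0 and 39.0 TPM in control cells and 76.5 and 35.9 TPM with TGFβ, and KCREB was the line outside the others. Prkacb, a catalytic subunit of protein kinase A, measured 91.3 and 58.6 TPM, then 83.3 and 57.1 TPM, with S133A-KCREB below all other lines. Prkacb lies on chromosome 3, and with chromosome medians removed its difference of -0.58 became -0.21 (adjusted p = 0.0575) and 2 members of the list passed in each direction. Adcy7, an adenylate cyclase, was higher in S133A-KCREB, at 30.8 and 54.4 TPM in control cells and 48.0 and 83.6 TPM with TGFβ.

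TGFβ ligands, receptors and latent binding proteins went both ways, 3 of 21 passing as higher and 4 as lower. Together this was 33.3% of the list, near the 32.6% over all genes. Tgfb1, the ligand TGFβ1, measured 53.9 TPM in KCREB and 160 TPM in S133A-KCREB control cells, and 103 and 242 TPM with TGFβ (1.39 ± 0.23, adjusted p = 0.00184). Tgfb1 lies on chromosome 7. Ltbp1, which tethers latent TGFβ to the matrix, measured 70.5 and 26.9 TPM in control cells and 54.8 and 26.3 TPM with TGFβ, with both KCREB values above the highest other library at 45.9 TPM. The type II receptor gene Tgfbr2 differed by 0.27 ± 0.09 (adjusted p = 0.0435) and the type I receptor gene Tgfbr1 by -0.26 ± 0.09 (adjusted p = 0.0559).

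Targets of SMAD proteins, the transcription factors downstream of the TGFβ receptors, were more often higher: 9 of 20 passed as higher and 2 as lower, with medians of 0.80 in control cells and 0.24 with TGFβ. Bhlhe40, a basic helix-loop-helix repressor, measured 67.0 and 248 TPM in control cells and 164 and 454 TPM with TGFβ. Klf10, the TGFβ-inducible early gene, measured 4.79 and 11.9 TPM, then 10.6 and 41.1 TPM. Ltbp3, a latent TGFβ binding protein, went the other way, at 268 and 66.8 TPM in control cells and 147 and 43.8 TPM with TGFβ. Other members met the 2-fold bound in control cells alone. Pmepa1, a feedback inhibitor of SMAD signalling, measured 36 and 148 TPM in control cells and 527 and 507 TPM with TGFβ, and the matricellular gene Ccn2 measured 77.1 and 217 TPM, then 782 and 697 TPM. Neither passed the line difference (adjusted p = 0.217 for Pmepa1 and 0.287 for Ccn2). Against the other 5 lines the list's median was -0.89 in control cells and -0.01 with TGFβ in KCREB, and 0.25 and 0.19 in S133A-KCREB.

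**Figure D4:**
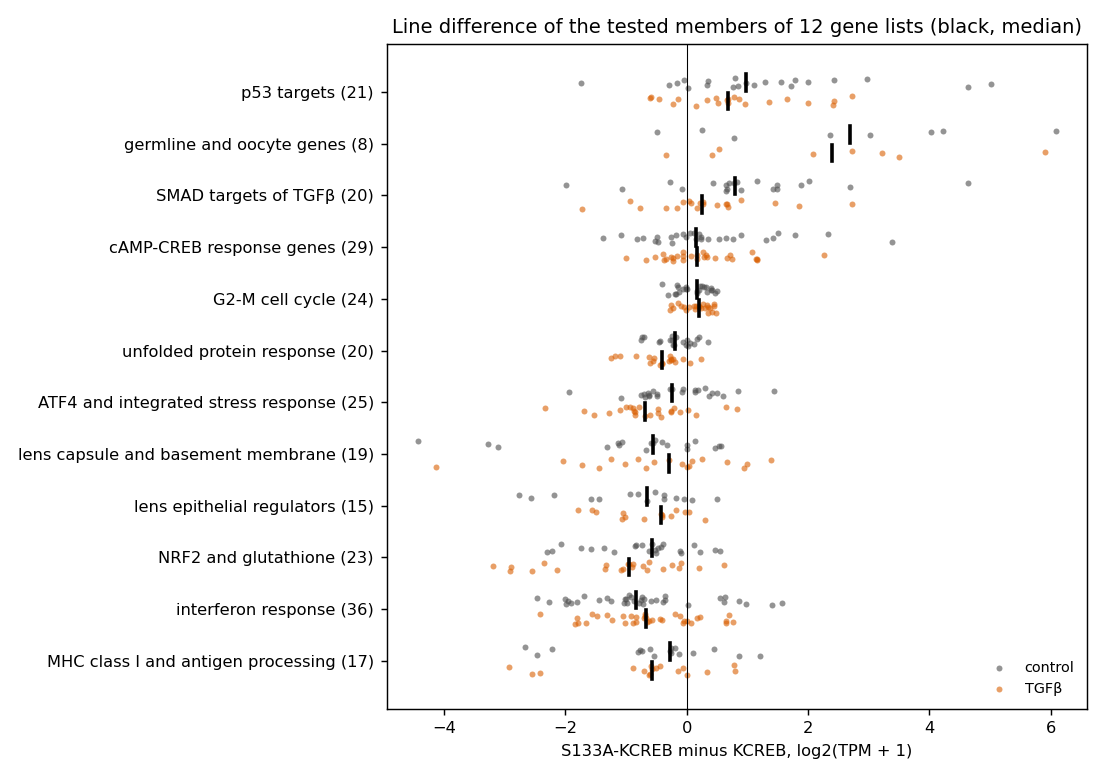
S133A-KCREB minus KCREB difference of each tested member of 12 gene lists on the log2(TPM + 1) scale, with 1 point per gene in control cells (grey) and with TGFβ (orange), black bars for the medians and the number of members in brackets. The medians of the p53 targets, 0.97 and 0.68, lie above 0, and those of the NRF2 and glutathione list, -0.57 and -0.95, lie below it.

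Genes of lens identity were lower in S133A-KCREB, 8 of 15 lens epithelial regulators passing as lower and none as higher, with medians of -0.65 and -0.43. Pax6, the paired-box regulator of eye development, measured 328 TPM in KCREB and 110 TPM in S133A-KCREB control cells, and 187 and 89.7 TPM with TGFβ. KCREB was the line above the others, whose highest library was 166 TPM, and the difference was -1.31 ± 0.15 (adjusted p = 3.67e-04). Prox1, a homeobox regulator of fiber cell differentiation, measured 66.3 and 13.8 TPM in control cells and 26.7 and 8.82 TPM with TGFβ. Mab21l1, required for lens formation in mice, measured 213 and 35.2 TPM, then 43.0 and 13.9 TPM. Fgfr3, an FGF receptor of the lens, measured 248 and 35.8 TPM, then 25.3 and 6.59 TPM (-2.28 ± 0.64, adjusted p = 0.0225). Sox2, Meis2 and Six3 passed as lower with differences of -0.83, -0.93 and -0.39. Against the other 5 lines the list's median was 0.75 and 0.82 in KCREB and 0.11 and -0.09 in S133A-KCREB. Pax6 and Meis2 lie on chromosome 2 and Mab21l1 and Sox2 on chromosome 3, and with chromosome medians removed 8 regulators passed as lower and 1 as higher. Cryaa, the αA-crystallin gene, measured 23.2 and 3.23 TPM in control cells and 13.2 and 5.07 TPM with TGFβ. Of the 25 crystallin and fiber genes listed only 5 were expressed enough to be tested, and 2 of these passed as lower.

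The lens capsule is a basement membrane laid down by these cells in the eye, and 10 of 19 tested capsule and basement membrane genes passed as lower and 3 as higher. Lama1, the laminin α1 chain, measured 15.3 and 0.687 TPM in control cells and 6.32 and 0.783 TPM with TGFβ. Nid2, nidogen-2, measured 25.9 and 2.10 TPM, then 2.21 and 0.581 TPM, a difference of -2.07 ± 0.55 (adjusted p = 0.0180). The call was lost at a pseudocount of 5 (0.0900), with FPKM (0.0552), without a filter on low values (0.0713) and on only the 4 libraries (0.0711). Col4a5, a type IV collagen chain, measured 128 and 57.3 TPM in control cells and 82.1 and 33.9 TPM with TGFβ. Lama2, the laminin α2 chain, measured 129 and 51.0 TPM, then 102 and 37.1 TPM. The 3 higher members were Lama5 (0.73 ± 0.15), the proteoglycan gene Agrn (0.75 ± 0.11) and the collagen gene Col18a1 (0.95 ± 0.24). With chromosome medians removed the counts were again 10 lower and 3 higher.

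The mesenchymal and matrix list held 7 of 31 genes higher and 4 lower, together 35.5%, near the 32.6% over all genes. Thbs1, the matricellular thrombospondin-1, measured 39.2 TPM in KCREB and 574 TPM in S133A-KCREB control cells, and 280 and 717 TPM with TGFβ (2.59 ± 0.59, adjusted p = 0.00917). Fn1, fibronectin, measured 72.4 and 114 TPM in control cells and 292 and 1058 TPM with TGFβ, a difference of 1.25 ± 0.42 (adjusted p = 0.0476). Col6a2, a collagen VI chain, measured 14.2 and 2.92 TPM in control cells and 3.47 and 0.531 TPM with TGFβ. Among 7 transcription factors of the epithelial to mesenchymal transition 1 passed as higher and 1 as lower, together 28.6%, also near the share over all genes. Zeb1 was higher, at 21.5 and 40.1 TPM in control cells and 23.1 and 39.1 TPM with TGFβ, and Prrx1 was lower (-0.83 ± 0.20, adjusted p = 0.0114).

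Antioxidant genes controlled by NRF2 and glutathione enzymes were lower as a group, 13 of 23 passing as lower and none as higher, with medians of -0.57 in control cells and -0.95 with TGFβ. Slc7a11, the cystine transporter, measured 34.0 TPM in KCREB and 9.52 TPM in S133A-KCREB control cells, and 82.0 and 10.1 TPM with TGFβ, with both KCREB values above the highest other library at 32.5 TPM. Hmox1, heme oxygenase 1, measured 209 and 80.9 TPM in control cells and 426 and 83.0 TPM with TGFβ, with both S133A-KCREB values below the lowest other library at 109 TPM. Gsta4, a glutathione transferase with close copies, measured 155 and 35.9 TPM, then 75.5 and 7.39 TPM. Nqo1, a quinone reductase, measured 128 and 42.0 TPM, then 52.3 and 11.1 TPM (-1.86 ± 0.53, adjusted p = 0.0236). Nqo1 and Hmox1 lie on chromosome 8 and Slc7a11 on chromosome 3, and with chromosome medians removed 8 members passed as lower and 1 as higher, and Nqo1 no longer passed at a difference of -1.57 (adjusted p = 0.0577).

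A pair of stress lists had the same direction. Of 25 genes of ATF4 and the integrated stress response, 12 passed as lower and 1 as higher. Cth, which makes cysteine from cystathionine, measured 53 and 24.5 TPM in control cells and 123 and 41.9 TPM with TGFβ. Nupr1, a stress-induced nuclear protein, measured 1210 and 775 TPM, then 2951 and 583 TPM. Of 20 genes of the unfolded protein response, 9 passed as lower and 1 as higher. Hspa5, the endoplasmic reticulum chaperone BiP, measured 1258 and 769 TPM in control cells and 2792 and 1169 TPM with TGFβ (-0.98 ± 0.18, adjusted p = 0.00358). In both Nupr1 and Hspa5 the KCREB library with TGFβ was the highest of the 4.

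Interferon response genes had medians of -0.83 and -0.68, with 7 of 36 passing as lower and 2 as higher, a share near that over all genes. By the 2-fold rule 8 of the 27 members kept were lower in both treatments and 0 higher. Over all genes these shares were 1.91% and 2.21%. Against the other 5 lines the list's median was -0.10 and -1.16 in KCREB and -1.0 and -1.85 in S133A-KCREB, and each of those 5 lines against the other 4 ranged from -1.59 to 1.78. Isg15, a ubiquitin-like modifier, measured 532 TPM in KCREB and 136 TPM in S133A-KCREB control cells, and 190 and 53.8 TPM with TGFβ (-1.88 ± 0.62, adjusted p = 0.0445). That call was lost without the Vector, WT-CREB or S133A/R314A-CREB line, with adjusted p of 0.0605, 0.0572 and 0.0612. It was also lost without a filter on low values (0.140), without the variance trend (0.05875) and with chromosome medians removed (0.0534). Ifi27 differed by -1.03 ± 0.15 (adjusted p = 0.00119), at 393 and 191 TPM, then 279 and 137 TPM. Irf1, an interferon regulatory factor, was higher in S133A-KCREB, at 53 and 142 TPM in control cells and 61.1 and 105 TPM with TGFβ, and KCREB was below every other line. The peptide transporters of antigen processing, Tap1 and Tap2, were lower. Tap1 measured 30.6 and 5.80 TPM, then 16.8 and 1.34 TPM, and Tap2 measured 26.5 and 3.34 TPM, then 8.61 and 0.637 TPM. Of 17 genes of MHC class I and antigen processing, 8 passed as lower and 1 as higher.

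Smaller lists are given by counts. Of 40 germline and oocyte genes 8 were tested, with 5 higher and none lower. Against the other 5 lines their median was -1.98 and -1.47 in KCREB and 0.65 and 0.93 in S133A-KCREB. Each of those 5 lines against the other 4 ranged from -2.47 to 2.31. The 24 G2-M genes of cell division had 9 higher and 1 lower, with medians of 0.17 and 0.21, while the 27 DNA replication genes had 5 higher and 4 lower. Cholesterol synthesis had 0 of 23 higher and 5 lower, and glycolysis and hypoxia 3 of 23 higher and 8 lower. None of the 13 mitochondrially encoded genes passed in either direction. Serum and immediate early genes had 7 of 26 higher and 4 lower. Among them Ier3, an early response gene, measured 0.498 and 13.5 TPM in control cells and 2.36 and 31.0 TPM with TGFβ, with S133A-KCREB above every other line.

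Markers of other cell types were at or near 0 for some lists and expressed for others. Of 14 muscle markers, 6 were listed at 0 in all 4 libraries and 5 were tested, of which 4 passed as higher. The summed level of the muscle list was 20.5 TPM in KCREB and 138 TPM in S133A-KCREB control cells, and 101 and 221 TPM with TGFβ. Tnnt2, cardiac troponin T, was at 7.05 and 89.6 TPM in control cells and 81.2 and 174 TPM with TGFβ. Des, desmin, measured 5.30 and 23 TPM, then 4.06 and 15.9 TPM. Of 14 macrophage markers 5 were at 0 in all 4 libraries and 5 were tested, with Lyz2, lysozyme, at 62.4 and 27.3 TPM in control cells and 14.8 and 8.38 TPM with TGFβ. The neuronal list summed to 74.1 TPM in S133A-KCREB with TGFβ and to at most 9.88 TPM in the other 3 libraries, nearly all of it Tubb3 at 71.0 TPM. Cornea and surface ectoderm markers were higher than these, summing to 640 and 948 TPM in control cells and 375 and 222 TPM with TGFβ, and 1 of 5 tested passed as higher and 1 as lower. The list includes Pax6, which the lens also expresses, and Aldh3a1, a corneal aldehyde dehydrogenase at 275 and 813 TPM in control cells and 168 and 96.9 TPM with TGFβ (adjusted p = 0.681). The part of other cell types in the differences was not tested.

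Genes apart in 1 treatment only depend on the bound set for the other treatment, here 0.5. A bound of 1 gave 406 genes for control cells and 176 for TGFβ. In control cells alone 138 genes were apart (1.33% of 10403), 65 higher (0.625%) and 73 lower (0.702%). With TGFβ alone 42 were apart (0.404%), 11 higher (0.106%) and 31 lower (0.298%). The test of the difference between treatments, limma on the TGFβ minus control value of each line, passed for 0 of 12927 genes. At an unadjusted p under 0.05 there were 688 (5.32%). None of these genes is therefore shown to differ between treatments. On simulated data this test recovered 14% of 2-fold, 62% of 4-fold and 84% of 8-fold changes in 12927 genes, so it had little power at 2-fold.

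Several of the genes apart in control cells were ones whose KCREB control library stood out. Spp1, the secreted phosphoprotein osteopontin, measured 673 TPM in KCREB and 2861 TPM in S133A-KCREB control cells, and 1914 and 1774 TPM with TGFβ. For Spp1, 3 libraries were high and the KCREB control library was low. On the lower side Lynx1, a modulator of nicotinic receptors, measured 256 and 57.0 TPM in control cells and 23.5 and 27.6 TPM with TGFβ, and Them6 measured 186 and 42.0 TPM, then 18.5 and 25 TPM. Sema3a, an axon guidance ligand, measured 26.3 and 2.71 TPM, then 1.19 and 0.625 TPM. Itga11, an integrin that binds collagen, measured 18.7 and 0.511 TPM, then 3.92 and 2.57 TPM. There the KCREB control library was the high one. With TGFβ both Sema3a values were low, where log2(TPM + 1) understates a difference, so its class depends on that scale. Sema3a and Itga11 passed the line difference (adjusted p = 0.0251 and 0.0379), and Spp1, Lynx1 and Them6 did not. Both calls were lost at a pseudocount of 5 (0.0585 for Sema3a and 0.0541 for Itga11). They were also lost without a filter on low values (0.0906 and 0.124) and on only the 4 libraries (0.141 and 0.149). Itga11 further did not pass without the R314A-CREB line (0.0502) or the S133A-CREB line (0.0517).

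Of the genes apart with TGFβ alone, Mmp9, a gelatinase, measured 3.67 and 3.96 TPM in control cells and 8.29 and 60.0 TPM with TGFβ. The S133A-KCREB library with TGFβ was the high one of the 4, and other lines reached 268 TPM. Lif, an interleukin-6 family cytokine, measured 0.857 and 0.439 TPM in control cells and 5.98 and 18.9 TPM with TGFβ. Both control values of Lif were low, where log2(TPM + 1) understates a difference, so its class depends on that scale. Timp2, an inhibitor of metalloproteinases, measured 273 and 210 TPM, then 103 and 213 TPM, so the KCREB library with TGFβ was low. On the lower side Dctd, a deoxycytidylate deaminase, measured 5.74 and 6.18 TPM in control cells and 16.1 and 6.32 TPM with TGFβ, and Tmem45a measured 43.5 and 47.9 TPM, then 54.4 and 24.3 TPM. None of Mmp9, Lif, Timp2, Dctd and Tmem45a passed the line difference, with adjusted p from 0.182 to 0.483. Gm52805, an unnamed gene model, was the only one 2-fold apart in opposite directions (0.00961% of 10403), at 16.2 and 6.27 TPM in control cells and 2.91 and 6.87 TPM with TGFβ. Its difference between treatments, 2.26 ± 0.24, had the smallest adjusted p of that test, 0.133.

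The study holds 2 more pairs that differ by S133A, on intact CREB and on R314A-CREB, and they share no library with this one. By the same rule the CREB pair had 407 genes higher (3.85%) and 107 lower (1.01%), and the R314A pair had 100 higher (0.958%) and 83 lower (0.795%). Of the 230 genes higher in the KCREB pair, 36 were higher in the CREB pair, which is 15.7% of the former and 8.85% of the latter list. The R314A pair shared 25 of them, 10.9% and 25%. Another 14 of the 230 were lower in the CREB pair and 10 in the R314A pair. Of the 199 lower genes, 7 were lower in the CREB pair and 14 in the R314A pair, while 45 and 10 were higher there. Across all 3 pairs 8 genes were higher and 0 lower. Chromosomes 7 and 13 were shifted upward and chromosome 2 downward in all 3 pairs, and the part of this in the overlap was not tested. The 8 include Nlrp4e, Pnma5, Cyp2b13 and Cox7b2, a testis-expressed cytochrome oxidase subunit at 2.54 and 56.6 TPM in control cells and 3.92 and 44.9 TPM with TGFβ. The test of the KCREB pair against the mean of the other pairs passed for 3930 genes (30.4%).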

How the data were processed

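RNA-seq was measured in 14 libraries, 1 per line and treatment. The authors deposited gene tables with TPM, FPKM and coverage values per gene and library. STAR 2.7.6a, StringTie 2.0.4, edgeR and GRCm39 are named in the submitters' processing notes, without their roles. Strandedness is not given in the sources used here. TPM (per the file headers) was used, FPKM (per the file headers) served as an alternative, and the deposited coverage signal served only as a guide to depth, since read counts were not used here. Lines with 1 gene identifier (at most 2) were summed.

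Values were tested as log2(TPM + 1), a scale that understates differences of low genes. Genes averaging 1 TPM or more over the 14 libraries entered limma 3.58.1 (R 4.3.3) with line and treatment as terms, a variance trend, 6 residual degrees of freedom and Benjamini-Hochberg adjustment. The difference between treatments was fitted to the 7 TGFβ minus control values with 4 residual degrees of freedom. Each of the 2 lines has 1 such value, so the spread comes from the other 5 lines. The 2 lines are assumed to vary like them. The 2 libraries of a line are its only repeat. The p-values of the line test set the line difference against how line differences vary between treatments, a spread that may be technical. Tested on simulated data, the line test recovered 60% of 2-fold and 92% of 4-fold changes, with 9 false calls among 12527 unchanged genes. The genes, lists and rules were chosen with earlier results of these data known. The naming rule took Creb1, the 12 highest and 12 lowest by the smaller of their differences and 5 per class apart in 1 treatment. It also took up to 4 members per list (41 lists, of which marker lists were not used). Not all of these genes are described. Other list members, markers and examples in the text, such as Zmat3, Fos, Hmox1 and Fn1, fall outside the rule. Alternatives changed the pseudocount, scaling, filter, fold and libraries.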

Additional observations from a re-analysis of the deposited data

Results flagged for a closer look

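The difference between the KCREB pair and the mean of the other S133A pairs was tested in limma. It was positive and past an adjusted p of 0.05 for 1745 genes and negative for 2185. The genes named below were chosen by the size of the KCREB pair difference, which the contrast contains, so their values are descriptions on the log2(TPM + 1) scale. Among the highest genes the contrast was 7.91 for Gatm, 7.53 for Efemp1, 5.76 for Napsa, 5.07 for Rhox5, 5.06 for Akr1b8, 4.83 for Plscr2, 3.98 for Siglecg, 3.97 for Emp3, 3.93 for Cadm4, 3.71 for Prkd3 and 2.69 for Tcp11x2. Nlrp4e was higher in all 3 pairs and did not pass. Among the lowest genes it was -5.38 for Nid1, -5.17 for Aldh1a1, -4.46 for Nme4, -4.29 for Dhrs3, -4.22 for Sfrp1, -4.09 for Dach2, -3.69 for Hhex, -3.58 for Ap3b2, -2.72 for Sgce, -2.72 for Ell3, -2.52 for Abhd6 and -2.35 for Mmp2. A contrast with a mean can hide a pair with the same difference. Mmp2 was also lower in the CREB pair, with differences of -5.23 in control cells and -4.71 with TGFβ. In the R314A pair Sgce differed by -2.53 and -2.21 and Abhd6 by -2.98 and -3.47. Each pair is 1 line against 1 line, so these values compare lines.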

How the results depend on the processing

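No result changed direction. The count of genes passing the difference between treatments, 0, became 3 at a pseudocount of 0.1, 3 without the variance trend and 456 without a filter on low values. A fit on only the 4 libraries, with 1 residual degree of freedom, passed 1199 higher and 1050 lower genes. Leaving out each other line in turn gave 1961 to 2108 higher and 1887 to 2076 lower genes and 0 for the difference between treatments; the test against the other pairs could then be fitted only without Vector, with 3578 genes. At a pseudocount of 5, 101 genes were lower in both treatments and 26 apart with TGFβ only. With a mean of at least 1 TPM, 347 genes were higher in both treatments, 224 apart in control only and 89 with TGFβ only. At 1.5-fold the counts were 675 higher, 605 lower, 774 control only and 460 TGFβ only, and at 4-fold 66, 39, 13 and 2. A bound of 0.25 in the other treatment left 65 control only and 17 TGFβ only, and a bound of 1 gave 406 and 176. Of the 163 genes of the naming rule 114 kept their call under every alternative run and 49 did not. Calls were lost most often without a filter (24), on 4 libraries (21) and with chromosome medians removed (20). Those lost on 4 libraries included Areg, Thbs1, Prrx1 and Ep300, and those lost without a filter included Fgfr3 and Nqo1. Genes named outside the rule were not in this tally. Depth was not known, so values near 0 carry no counting interval. No paired analysis was possible because the labels give no replicate numbers that match libraries across lines; the control and TGFβ libraries of a line are matched by the line itself, through the line term and the within-line TGFβ minus control values.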
